A study of Homo sapiens with 2 samples.

Results

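The 8 mature microRNAs (miRNAs) described here come from 5 hairpins that lie inside genes for subunits of the receptor for the neurotransmitter GABA. They were chosen by precursor name, with both arms of each hairpin: hsa-mir-105-1, hsa-mir-105-2 and hsa-mir-767 in GABRA3, and hsa-mir-224 and hsa-mir-452 in GABRE. The species prefix is left out below. They make up 10 rows of the deposited table, and 8 of the 1623 annotated mature miRNAs. The study sequenced small RNAs of 2 established human breast cancer cell lines, with 1 library per line. MDA-MB-468 is triple-negative, without HER2 or the receptors for oestrogen and progesterone, and was cultured in DMEM. BT474 carries the oestrogen receptor and was cultured in RPMI-1640. In both, a stem-enriched subpopulation was obtained by flow cytometry with the surface markers CD24 and CD44. With 1 library per line there is no replicate check and no test of the lines, and line, sort and medium cannot be told apart.

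A miRNA is cut from a hairpin in a longer transcript, and 1 or both arms (5p and 3p) are kept as the mature form. Bases 2 to 8, the seed, pair with target messenger RNAs, which are then repressed. GABRA3 and GABRE encode an alpha and the epsilon subunit of the GABA-A receptor, a chloride channel best known from neurons. The hairpins inside GABRA3 are known as part of a cancer-germline transcript, silent in most healthy tissues outside the testis and switched on in some tumours with loss of DNA methylation. miR-105 is known for repressing the tight junction gene TJP1 and miR-767 for repressing TET1 and TET3, enzymes that oxidise methylated cytosine. miR-224 is best known as an abundant miRNA of liver cancer, and miR-452 is made from the same transcript.

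All 8 mature sequences are shown because the seeds decide which members could share targets. They were taken from RefSeq (GRCh38.p14), where all 8 names matched, and the seed is in capitals.
miR-767-5p: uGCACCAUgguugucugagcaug
miR-767-3p: uCUGCUCAuaccccaugguuucu
miR-105-5p: uCAAAUGCucagacuccuguggu
miR-105-3p: aCGGAUGUuugagcaugugcua
miR-224-5p: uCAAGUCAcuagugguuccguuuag
miR-224-3p: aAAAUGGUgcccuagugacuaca
miR-452-5p: aACUGUUUgcagaggaaacuga
miR-452-3p: cUCAUCUGcaaagaaguaagug
No pair of members had the same seed.

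The hairpins form a group of 3 and a group of 2 on chromosome X, all on the minus strand (GENCODE 29, GRCh38). MIR105-1 (chrX:152392219-152392299), MIR767 (chrX:152393421-152393529) and MIR105-2 (chrX:152394412-152394492) lie in intron 1 of the 10-exon transcript GABRA3-201, with 1121 and 882 bases between neighbours. The other 3 annotated GABRA3 transcripts do not span them. MIR224 (chrX:151958578-151958658) and MIR452 (chrX:151959628-151959712) lie in intron 6 of the 9-exon transcript GABRE-201, 969 bases apart, and both also overlap an exon of the retained-intron transcript GABRE-209. Between MIR452 and MIR105-1 there are 432506 bases. The protein-coding genes around them include MAGEA4, MAGEA10 and MAGEA3, which are themselves known as cancer-germline genes.

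**Figure D1:**
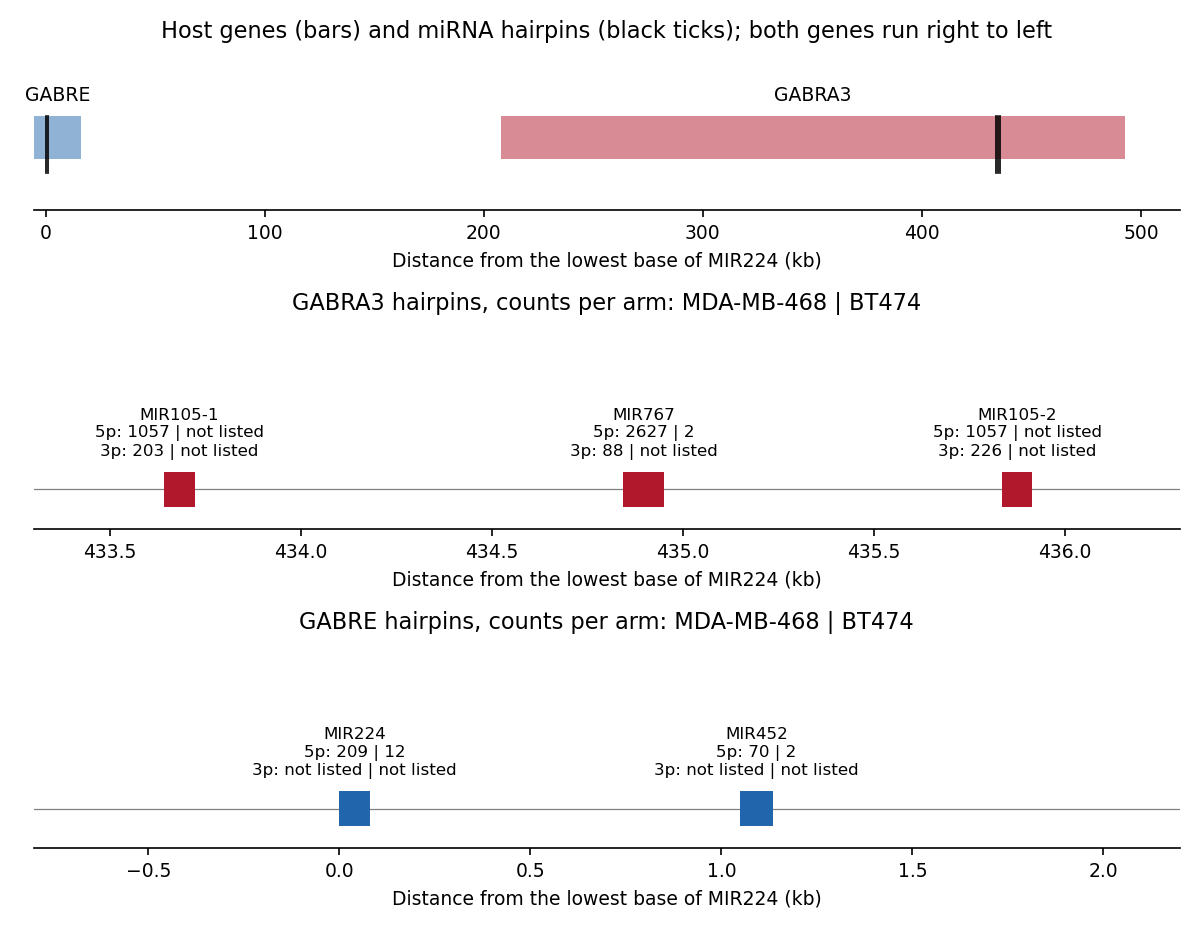
Positions of the 5 hairpins, in kb from the lowest base of MIR224, with both host genes above and the 2 hairpin groups enlarged below; the counts beside each arm are those of MDA-MB-468 and then BT474. The 2 mir-105 hairpins flank mir-767 and carry the same 5p count of 1057, and their mature arms are the same in sequence.

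The members were scarce to moderate in MDA-MB-468 and near the limit of the table in BT474. A count takes in every isoform tag of a mature miRNA. Levels are counts-per-million (CPM), relative to the library's annotated miRNA total (11448022 for MDA-MB-468, 5133057 for BT474). The smallest count listed was 2 in either library, so an unlisted member is not a measured 0. A floor of 3 counts stands in for it, equal to 0.262 CPM in the MDA-MB-468 library and 0.584 CPM in the BT474 library. Bracketed ranges are exact intervals at the 95% level (Poisson for a CPM, Clopper-Pearson for a ratio or share) and cover counting error only. Mature miRNAs are close to each other in length, here 22 to 25 nt, so levels were compared between them without scaling to length. Whether different sequences were captured equally well was not tested. Comparisons between miRNAs or arms are therefore of read counts. In RNA pooled from many cells, fewer cells with a miRNA and less of it per cell cannot be told apart.

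Of the GABRA3-hosted miRNAs, miR-767-5p was the most abundant. It had 2627 counts in MDA-MB-468, against 2 counts in BT474. On the CPM scale this was 229 in MDA-MB-468 (221 to 238), against 0.390 in BT474 (0.0472 to 1.41). It stood at rank 121 of the 952 miRNAs listed in MDA-MB-468. The level in MDA-MB-468 was 589-fold that in BT474, with an interval of 163 to 4866 because the BT474 value is 2 counts. Its partner arm miR-767-3p had 88 counts in MDA-MB-468, or 7.69 CPM (6.17 to 9.47), and was not listed in BT474. With the floor for BT474 its fold was at least 13.2 before counting error, whose interval starts at 4.36.

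miR-105-5p had 1057 counts in MDA-MB-468, or 92.3 CPM (86.8 to 98.1), at rank 169, and was not listed in BT474. That made its fold at least 158 before counting error, whose interval starts at 53.9. miR-105-3p had 226 counts in MDA-MB-468, or 19.7 CPM (17.3 to 22.5), and was also not listed in BT474. Its fold was at least 33.8 before counting error, whose interval starts at 11.4. All 4 GABRA3-hosted miRNAs were thus listed in MDA-MB-468 and 1 of 4 in BT474, at the smallest count the table holds.

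The GABRE-hosted miRNAs were lower in MDA-MB-468 than miR-767-5p and miR-105-5p, and were listed in both libraries on the 5p arm alone. miR-224-5p had 209 counts in MDA-MB-468, against 12 in BT474. Its level was 18.3 CPM (15.9 to 20.9) in MDA-MB-468, against 2.34 CPM (1.21 to 4.08) in BT474. It was 7.81-fold higher in MDA-MB-468, with an interval of 4.38 to 15.4. miR-452-5p had 70 counts in MDA-MB-468, against 2 in BT474. Its level was 6.11 CPM (4.77 to 7.73) in MDA-MB-468, against 0.390 CPM (0.0472 to 1.41) in BT474. It was 15.7-fold higher, with an interval of 4.19 to 132. The intervals of these folds overlap, so the 2 GABRE-hosted miRNAs cannot be ordered by their fold. Neither miR-224-3p nor miR-452-3p was listed in either library, and no fold is given for them.

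**Figure D2:**
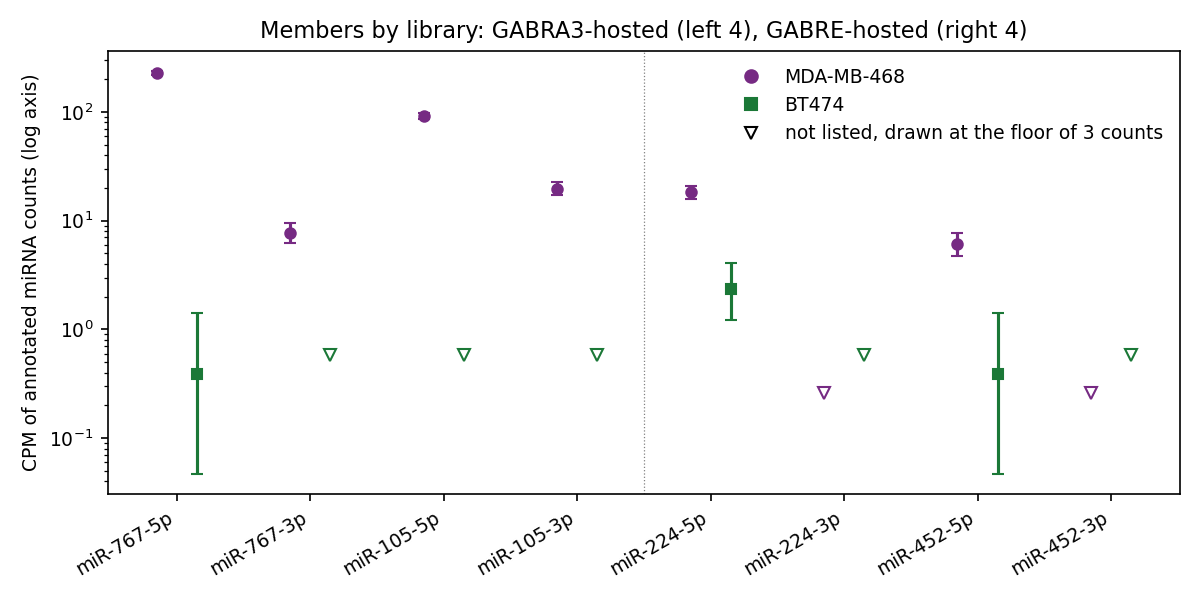
CPM of the 8 members in MDA-MB-468 (circles) and BT474 (squares) on a log axis, with exact Poisson intervals; open triangles stand for members not listed, at the floor of 3 counts. The 6 members listed in MDA-MB-468 run from 6.11 to 229 CPM, and in BT474 the only member above 1 CPM is miR-224-5p at 2.34.

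Within MDA-MB-468 the order of the levels was miR-767-5p, miR-105-5p, miR-105-3p, miR-224-5p, miR-767-3p and miR-452-5p. miR-767-5p had 2.49 times the counts of miR-105-5p (2.31 to 2.67). miR-105-5p can come from 2 hairpins and miR-767-5p from 1. The 1057 counts listed under each mir-105 hairpin are taken once here, as is the larger count of miR-105-3p. Whether the same reads are listed under both hairpins is not known. If they were separate reads, both miR-105 levels would be higher and the ratio of 2.49 lower. miR-105-5p had in turn 5.06 times the counts of miR-224-5p (4.36 to 5.89). Counting error does not separate miR-105-3p from miR-224-5p, whose CPM intervals overlap, nor miR-767-3p from miR-452-5p, whose ratio was 1.26 (0.908 to 1.75). miR-224-5p had 2.99 times the counts of miR-452-5p in MDA-MB-468 (2.27 to 3.97), against 6 times in BT474 (1.34 to 55.2), and these intervals overlap.

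The share of each host gene in the members' counts differed between the libraries, and this does not depend on how they are scaled. The GABRA3-hosted miRNAs held 3998 of 4277 member counts in MDA-MB-468, or 93.5% (92.7 to 94.2), and 2 of 16 in BT474, or 12.5% (1.55 to 38.3). These shares take unlisted members as 0. With each unlisted member at 3 counts, the share would be 93.3% in MDA-MB-468 (92.6 to 94.1), against 35.5% in BT474 (19.2 to 54.6). The intervals do not overlap in either case. Summed over its members, the GABRA3 group stood at 349 CPM (338 to 360) in MDA-MB-468, against 0.390 CPM in BT474, an 896-fold difference (log2 ratio 9.81, 7.95 to 12.85). That sum takes the 3 unlisted members of BT474 as 0. With each at 3 counts it would be 163-fold (log2 ratio 7.35). The GABRE group stood at 24.4 CPM (21.6 to 27.4) in MDA-MB-468, against 2.73 CPM (1.49 to 4.58) in BT474, an 8.94-fold difference (log2 ratio 3.16, 2.39 to 4.05). With its unlisted members at 3 counts in either library it would be 6.39-fold (log2 ratio 2.68).

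These folds were read against all 690 miRNAs with at least 10 counts in a library. A miRNA was called where the fold reached 2 in either direction and its interval excluded 1. By that rule 29.1% of the 690 were called as higher in MDA-MB-468 and 28.3% as lower, and the median log2 ratio was 0.30. Of the 8 members 6 reached 10 counts, and 6 were called higher. Of these 6, 5 passed the count minimum through MDA-MB-468 alone and miR-224-5p passed it in both libraries. The members were picked with these values known, so their count is a description. By log2 ratio miR-767-5p (9.20) took the second place of the 690, miR-105-5p (7.30) place 4, miR-105-3p (5.08) place 20, miR-452-5p (3.97) place 33, miR-767-3p (3.72) place 40 and miR-224-5p (2.97) place 60. The values of miR-105-5p, miR-105-3p and miR-767-3p are lower bounds set by the floor, before counting error.

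**Figure D3:**
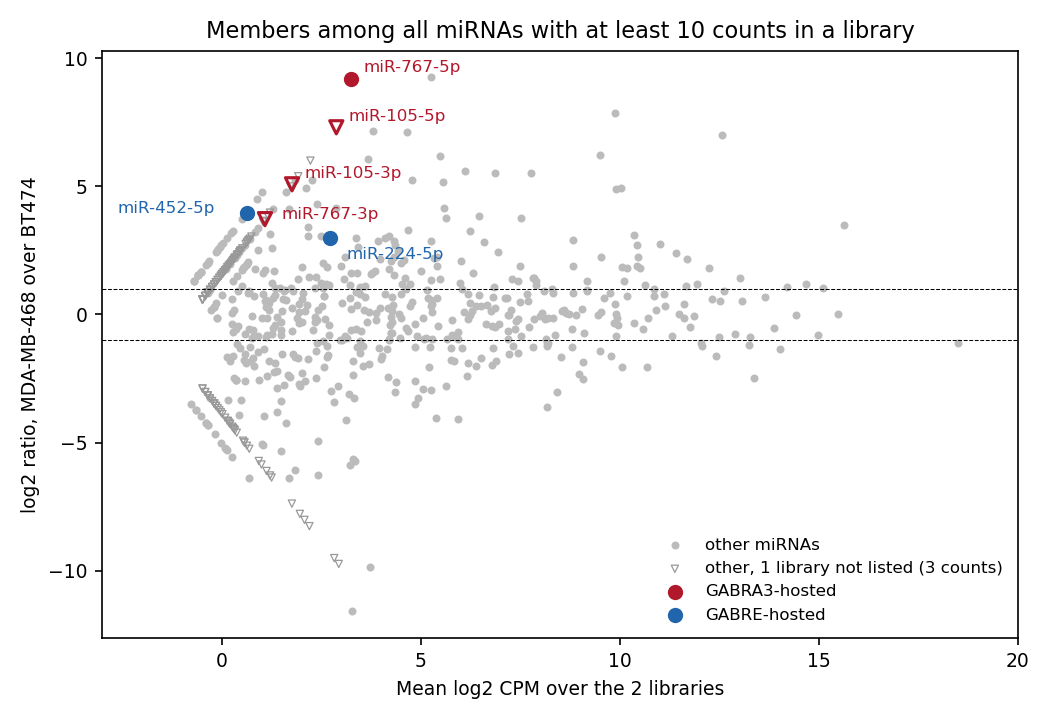
Log2 ratio of MDA-MB-468 over BT474 against the mean log2 CPM for the 690 miRNAs with at least 10 counts in a library; triangles mark miRNAs not listed in 1 library and set at 3 counts, and dashed lines the 2-fold limits. The 4 GABRA3-hosted miRNAs lie between log2 ratios of 3.72 and 9.20, and the 2 GABRE-hosted ones at 2.97 and 3.97.

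The 5p arm was the more abundant one in each of the hairpins. For mir-767 the 5p arm held 96.8% of the 2715 arm counts in MDA-MB-468 (96.0 to 97.4), 29.9 reads of 5p for each of 3p. For mir-105 it held 82.4% (80.2 to 84.4), so the 3p arm took a larger share there than in mir-767. For mir-224 and mir-452 no 3p count was listed in MDA-MB-468. With the 3p arm at 3 counts, the 5p share would still be 98.6% for mir-224 and 95.9% for mir-452. Across 133 hairpins of MDA-MB-468 with both arms listed, at least 100 counts and arm names found on a single precursor, the median share of the more abundant arm was 96.8%, and the quartiles were 86.4% and 99.6%. The share of mir-105 lay below that lower quartile and the share of mir-767 at the median. In BT474 no 3p arm of a member was listed, and the 5p counts of 2, 12 and 2 do not allow a comparison.

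The 2 mir-105 hairpins are nearly the same, and both are shown because they decide what the counts of miR-105 can tell apart. Capitals mark the bases that differ.
MIR105-1: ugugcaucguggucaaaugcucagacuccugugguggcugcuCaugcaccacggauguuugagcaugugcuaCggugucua
MIR105-2: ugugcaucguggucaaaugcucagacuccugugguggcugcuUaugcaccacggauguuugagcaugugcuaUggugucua
Of 81 bases 79 were identical. Counted from 1 at the 5′ end of MIR105-1, the differences were C43U, between the arms, and C73U, the first base after the 3p arm. Both mature arms are therefore the same in either hairpin. The 5p arm had 1057 counts under each, and the 3p arm had 203 counts under mir-105-1 and 226 under mir-105-2, a difference of 23 counts. Of the 85 mature names listed on several precursors 32 had unequal counts. The larger value was used above. With 203 counts the 5p share of mir-105 would be 83.9%. How much of miR-105 each hairpin gave cannot be read from these counts.

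mir-767 resembles its neighbours in sequence. Over its 23 bases miR-767-5p matched positions 45 to 67 of either mir-105 hairpin at 20 bases, a stretch that runs into the miR-105-3p arm. Capitals mark the mismatches.
miR-767-5p: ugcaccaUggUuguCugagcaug
MIR105-1 window: ugcaccaCggAuguUugagcaug
Counted from the 5′ end of miR-767-5p, with its base first, the mismatches were U8C, U11A and C15U.

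Relatives of the members by seed were looked up among all mature human miRNAs in RefSeq. The same bases 2 to 8 were found in 1 other miRNA for miR-105-5p (miR-7853-5p, with no row in the table) and in 2 for miR-452-5p. Of these, miR-4676-3p had 6 counts in MDA-MB-468 and was not listed in BT474, and miR-892c-3p had no row. miR-767-5p shares no seed, but its bases 2 to 7 are bases 3 to 8 of the miR-29 family, whose members are known to repress TET genes too. The shared bases are in capitals.
miR-767-5p: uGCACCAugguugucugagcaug
miR-29a-3p: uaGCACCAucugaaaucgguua
miR-29b-3p: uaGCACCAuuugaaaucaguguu
miR-29c-3p: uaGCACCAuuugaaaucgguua
Their levels were set side by side. miR-29a-3p was the most abundant, at 1232 CPM in MDA-MB-468, against 166 in BT474 (log2 ratio 2.89, 2.79 to 2.99). miR-29b-3p was at 81.2 CPM in MDA-MB-468, against 21.8 in BT474 (log2 ratio 1.90, 1.61 to 2.19). miR-29c-3p was at 16.5 CPM in MDA-MB-468, against 5.45 in BT474 (log2 ratio 1.60, 1.02 to 2.23). In MDA-MB-468 miR-767-5p at 229 CPM was thus below miR-29a-3p and above miR-29b-3p and miR-29c-3p, whereas in BT474 it was below all 3. miR-22-3p, another miRNA known to repress TET genes, was at 288 CPM in MDA-MB-468, against 695 in BT474 (log2 ratio -1.27, -1.34 to -1.20). Of these 4 TET-repressing miRNAs 3, all of the miR-29 family, were called as higher in MDA-MB-468 and miR-22-3p as lower. Over all 690 miRNAs 29.1% were called higher and 28.3% lower. The median log2 ratio of the 4 was 1.75.

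Other miRNAs of the same chromosome arm did not share one direction. A list of 39 hairpins of Xq26 to Xq28, not all of that region, was compared, of which 15 had rows in the table. Of its 11 miRNAs with at least 10 counts, 2 were called as higher in MDA-MB-468, 5 as lower and 4 as neither. Over all 690 miRNAs 29.1% were called higher and 28.3% lower. The median log2 ratio of the 11 was -0.98. The 6 with the largest summed counts were miR-934 (10860 counts in MDA-MB-468, against 8 in BT474, log2 ratio 9.25), miR-450b-5p (998 against 577, -0.37), miR-504-5p (not listed in MDA-MB-468, against 982 in BT474, at most -9.51), miR-542-3p (587 against 308, -0.23), miR-505-3p (208 against 388, -2.06) and miR-503-5p (278 against 303, -1.28). miR-934 was thus the only 1 of these 6 called higher. The other listed miRNA called higher was miR-664b-3p, with 35 counts in MDA-MB-468, against 2 in BT474 (log2 ratio 2.97, 1.01 to 6.07). The bound of miR-504-5p leaves out counting error, whose interval ends at -7.96. The testis-linked hairpins of the miR-506 to miR-514 and miR-888 to miR-892 groups gave 9 counts at most, for miR-514a-3p in MDA-MB-468. The list leaves out the miR-106a/363 cluster of Xq26, added here after its values were seen. There miR-363-3p (log2 ratio 5.51), miR-20b-5p (5.18), miR-106a-5p (3.77) and miR-106a-3p (at least 2.35 before counting error) were called as higher in MDA-MB-468. Its miR-18b-5p, miR-20b-3p and miR-363-5p were not called. The tally and median above describe the list alone, not the region.

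A second group hosted by a neurotransmitter receptor gene, HTR2C for a serotonin receptor on chromosome X, was also examined. Of its 6 hairpins 3 had rows, and 2 mature miRNAs reached 10 counts. Both reached them in MDA-MB-468 alone, and both were called as higher there, beside 29.1% of the 690. miR-448 had 84 counts in MDA-MB-468, or 7.34 CPM, and was not listed in BT474. Its fold was at least 12.6 before counting error, whose interval starts at 4.15. miR-1298-5p had 69 counts in MDA-MB-468, against 3 in BT474. It was at 6.03 CPM in MDA-MB-468, against 0.584 in BT474, 10.3-fold higher (3.38 to 51.2). These levels are close to those of miR-767-3p and miR-452-5p. The neuronal miR-124-3p had no row in the table.

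**Figure D4:**
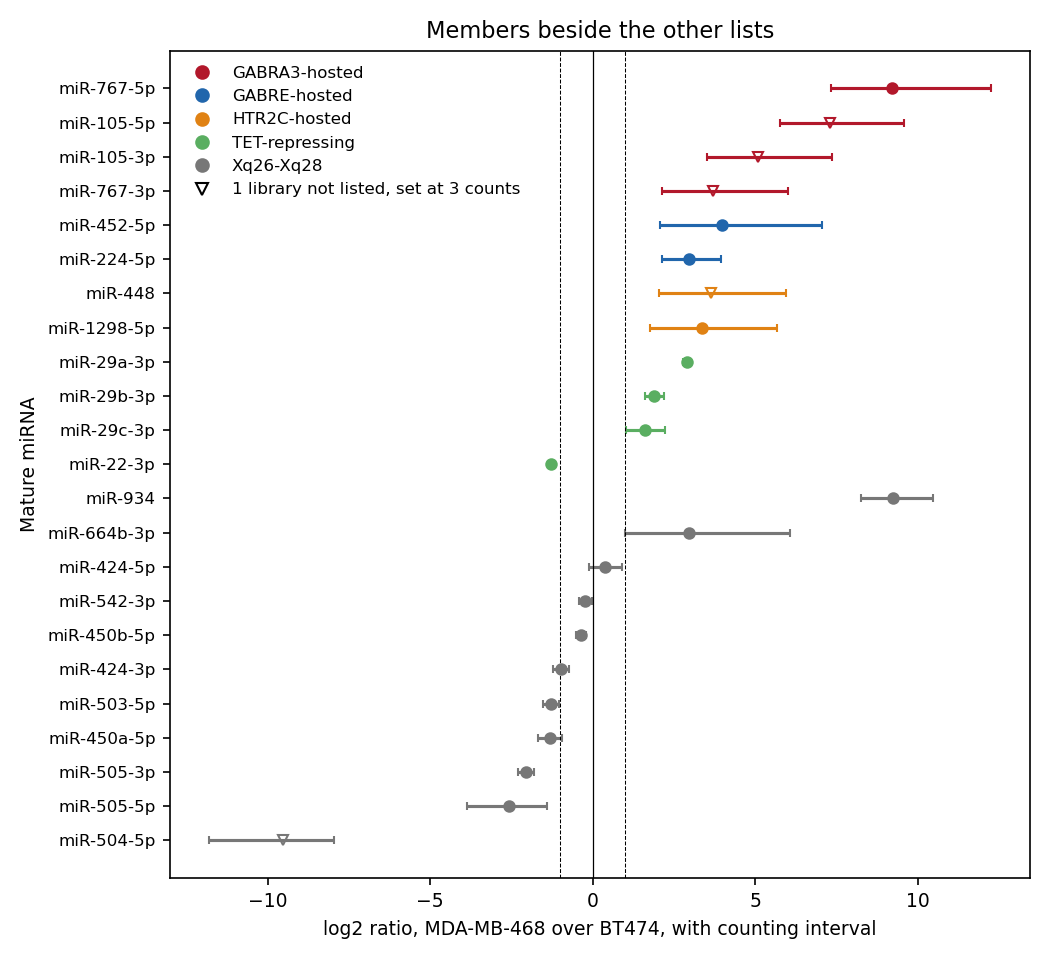
Log2 ratio of MDA-MB-468 over BT474 with exact counting intervals for the members and for the miRNAs of the HTR2C-hosted, TET-repressing and Xq26 to Xq28 lists with at least 10 counts in a library; open triangles mark miRNAs not listed in 1 library and set at 3 counts. The members lie between 2.97 and 9.20, while the Xq26 to Xq28 list runs from -9.51 to 9.25.

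The miRNAs nearest to the leading member of each host gene in log2 ratio were found among 418 non-members with at least 10 counts in both libraries. The ratio over 2 libraries is a weak measure of likeness. For miR-767-5p the nearest were miR-205-5p (7.87), miR-135b-5p (7.12) and miR-30a-5p (7.02), each more than 1 log2 unit away. That count minimum, which miR-767-5p itself misses with 2 counts in BT474, leaves out miR-934, whose log2 ratio of 9.25 was closer to the 9.20 of miR-767-5p than any of these; it was added here after its value was seen. For miR-224-5p they were miR-3065-5p (2.97), miR-29c-5p (3.00) and miR-29a-3p (2.89).

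Facts of the libraries that bear on these values are few. MDA-MB-468 was read 2.23 times as deeply as BT474. The epithelial miR-200 markers summed to 71005 CPM in MDA-MB-468, against 58056 in BT474. This list was divided, with miR-200b-3p called as higher in MDA-MB-468 (log2 ratio 1.04), miR-200c-3p (-1.35) and miR-141-3p (-1.50) as lower, and the other 2 not called. Markers of blood cells summed to 21.1 CPM in MDA-MB-468, against 36.2 in BT474, and mesenchymal markers to 371 CPM, against 177. All 5 blood markers had rows, with miR-144-3p not listed in MDA-MB-468 and at 2 counts in BT474. Of the 4 mesenchymal markers, miR-143-3p, with 4056 of the 4249 counts of the list in MDA-MB-468, and miR-145-5p were called as higher there and miR-199a-3p as lower (33 counts in MDA-MB-468, against 62 in BT474), while miR-214-3p was unlisted in MDA-MB-468, against 2 counts in BT474. Both samples are sorted cells of established lines, and the source of these marker reads was not tested. In the deposited normalized values the 6 members listed in MDA-MB-468 scored from 5 to 201, and in BT474 the only member with a score was miR-224-5p, at 1.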

How the data were processed

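Small RNA was measured in 2 libraries, 1 per cell line. Per the labels' protocols, the size selection kept small RNAs of about 15 to 35 nt, and sequencing ran for 51 cycles. The authors deposited raw tag counts per mature miRNA and precursor, and normalized scores rounded to whole numbers, whose scaling is not stated. The submitters' processing notes name Novoalign 2.07.11, with no role. Genome build, annotation release and counting software are likewise not given in the sources used here. Of the deposited columns, the one headed MAD-MB-468 was taken to be the MDA-MB-468 sample, since no other title is like it.

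Predicted candidates (384 of 2121 rows) were left out. A name on several precursors kept its largest count, and miR-199a-3p and miR-199b-3p were merged, which left 1623 names. Counts were scaled to CPM. Each ratio sets MDA-MB-468 over BT474, with exact conditional binomial intervals, in which an unlisted value entered at 3 counts. Without molecular identifiers, reads are not independent molecules, and every interval or floor allows for counting error alone. The interval script was tested on simulated data. Alternatives used edgeR 4.0.16 and DESeq2 1.42.0 for scaling factors alone, over miRNAs with at least 10 counts. Python 3.11.15 and scipy 1.17.1 were used.

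Named miRNAs are all members, the lists' miRNAs with at least 10 counts (at most 6 by summed count), the 3 nearest in log2 ratio per host gene, and seed relatives. Some others were added after their values were seen. The members and lists were chosen with earlier results of these data known.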

Additional observations from a re-analysis of the deposited data

How the results depend on the processing

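The log2 ratios of the 6 members with at least 10 counts kept their direction in all 37 combinations of member and alternative. They kept their call in the 36 with an interval; for miR-224-5p with the authors' normalized values no interval exists, so no call was made. They ran from 8.99 to 9.27 for miR-767-5p, 7.10 to 8.38 for miR-105-5p, 4.87 to 6.07 for miR-105-3p, 3.50 to 3.79 for miR-767-3p, 3.76 to 4.04 for miR-452-5p and 2.76 to 3.81 for miR-224-5p. The upper ends of miR-105-5p and miR-105-3p came from summing over precursors, which adds the counts listed under both mir-105 hairpins. With the other alternatives they reached 7.30 and 5.07 at most. A total that leaves out the 10 most abundant miRNAs shifted every log2 ratio by -0.21, DESeq2's size factors by -0.12 and TMM by -0.03. The lowest member log2 ratio was 2.97, so such shifts could not change a direction or call and do not test them. The floor, which sets the BT474 side of miR-105-5p, miR-105-3p and miR-767-3p, was not varied. The summed log2 ratio was 7.35 for the GABRA3 group and 2.68 for the GABRE group with every unlisted member at 3 counts, an alternative chosen after seeing the data. That of the GABRE group was 4.25 with the authors' normalized values, where 1 score in BT474 decides it; no GABRA3 member has a score in BT474, so no such value exists there. The number of miRNAs called lower, 195 above, was 103 with at least 50 counts and 109 with the normalized values, both over fewer miRNAs. No paired analysis was possible because each group held 1 library. Leaving out a replicate was not possible for the same reason. Depth limits the BT474 side most, where 2 of the 3 listed members had 2 counts.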

Other observations

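Among the 171 miRNAs with at least 1000 counts in MDA-MB-468, 1 was not listed in BT474, and it was miR-105-5p. This filter uses the library in which the members were high, with their values known, so the result is a description. miRNAs with high counts in BT474 were not examined in the same way, but such cases exist there too. miR-708-5p (log2 ratio at most -9.74 before counting error) and miR-504-5p (982 counts in BT474) were not listed in MDA-MB-468. Of the 690 miRNAs, 90 were not listed in BT474 and 46 were not listed in MDA-MB-468. Percentages here compare raw counts, and MDA-MB-468 was read 2.23 times as deeply. In 12 of the 171 the BT474 count was below 1% of the MDA-MB-468 count. The lowest of these percentages were 0.0737% for miR-934, with 8 counts in BT474, and 0.0761% for miR-767-5p, with 2 counts. For miR-224-5p the percentage was 5.74% and for miR-452-5p 2.86%. At the percentage of miR-767-5p, miR-105-5p would have had 0.805 counts in BT474. That percentage rests on 2 counts (0.0472 to 1.41 CPM), and whether miR-105-5p shares it was not tested.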
